A study of Mus musculus with 12 samples.

Results

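Bone morphogenetic protein (BMP) signalling and the Id genes were followed in HT-22 cells exposed to thyroid hormone and glucocorticoid. The members were the ligand gene Bmp4, the protease gene Bmp1, the receptor genes Bmpr1a and Bmpr2, the decoy receptor gene Bambi, the signal transducer Smad1, the inhibitory Smad6, and the target genes Id1, Id2 and Id3. They were chosen by gene symbol, as every array probe annotated to 1 of these 10 genes. This gave 25 of the 45281 probes on the array. Of these, 19 probes of 8 genes passed a background limit of 72.8 normalized intensity units on at least 3 of the 12 arrays and were tested, beside 24084 probes tested over the whole array.

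HT-22 is a single cell line from mouse hippocampus, immortalised with the SV40 T antigen and described as carrying neuronal markers. Total RNA was hybridised to Illumina Mouse WG-6 v2.0 bead arrays after 4 h in 1 of 4 conditions, with 3 arrays each: vehicle, 30 nM 3,5,3'-triiodothyronine (T3), 100 nM corticosterone (CORT), or both hormones together (T3+CORT). The cells had been grown in serum stripped of thyroid and steroid hormones and were moved to serum-free medium for treatment, and every condition contained 0.03% DMSO and 0.001% ethanol. Each treatment was done in triplicate per the methods, but neither these nor the labels call the replicates separate cultures, so p-values measure the spread between these samples, and they do not tie arrays to bead chips, so the part of a chip in any difference was not tested. In bulk RNA, fewer cells of a type and less RNA per cell cannot be told apart.

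BMPs are secreted ligands that bring together type I receptors such as BMPR1A and the type II receptor BMPR2. The active type I receptor phosphorylates SMAD1 and its close relatives, which enter the nucleus with SMAD4 and switch on targets that include the Id genes and the feedback inhibitor Smad6. Id proteins contain a helix-loop-helix but no DNA-binding stretch, so they pair with E proteins and keep them and their neurogenic partners off DNA. In the hippocampus, BMP signals are known for holding neural stem cells quiescent. Extracellular antagonists such as chordin bind the ligands, and BMP1 is not a ligand but a metalloprotease that cleaves chordin and procollagens.

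Promoters of the Id genes are shown because Id1 and Id2 held the largest differences from vehicle among the members. Among the members, 7 of 10 had an entry in the RefSeq promoter table of build GRCm38.p6, which holds 250 bases before and 50 bases after a transcription start. Id1, at chr2:152736251-152737410, was not among them. The windows below are chr12:25096043-25096342 on the minus strand, chr4:136143572-136143871 on the plus strand and, for the fourth family member Id4, chr13:48260866-48261165 on the plus strand. Capitals mark GGCGCC, the core letters of a BMP response element, and sequences run 5′ to 3′.
Id2 promoter: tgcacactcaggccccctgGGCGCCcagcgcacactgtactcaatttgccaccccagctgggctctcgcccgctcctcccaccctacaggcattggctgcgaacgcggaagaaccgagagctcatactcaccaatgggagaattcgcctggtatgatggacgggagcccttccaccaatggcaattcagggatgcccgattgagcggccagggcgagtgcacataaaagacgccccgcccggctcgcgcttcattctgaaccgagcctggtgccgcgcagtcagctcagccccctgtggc
Id3 promoter: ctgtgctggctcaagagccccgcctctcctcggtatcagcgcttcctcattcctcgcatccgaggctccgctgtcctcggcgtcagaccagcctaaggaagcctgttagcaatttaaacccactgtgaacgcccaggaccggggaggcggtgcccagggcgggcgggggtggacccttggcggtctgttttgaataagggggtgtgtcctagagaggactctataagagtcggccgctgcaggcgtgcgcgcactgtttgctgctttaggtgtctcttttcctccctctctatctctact
Id4 promoter: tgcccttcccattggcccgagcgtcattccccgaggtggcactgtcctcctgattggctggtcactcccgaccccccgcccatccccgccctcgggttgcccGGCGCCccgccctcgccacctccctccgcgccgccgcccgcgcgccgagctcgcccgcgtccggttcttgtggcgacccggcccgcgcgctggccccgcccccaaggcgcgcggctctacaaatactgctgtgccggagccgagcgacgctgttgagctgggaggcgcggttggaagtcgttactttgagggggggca
The Id2 window held GGCGCC at bases -231 to -226 and the Id4 window at bases -148 to -143 from the start, while the Id3 window held none. GGCGCC also stood in the Bmpr1a and Bmpr2 windows, and in 11.9% of 32851 promoters of the same length. The core site AGAACA of a glucocorticoid response element, searched on both strands, was found in the Bmpr2 and Smad6 windows and in 19.0% of all promoters, and in none of the Id2, Id3 and Id4 windows. The SMAD palindrome GTCTAGAC was found only in Smad6 among the member windows, and in 0.213% of all promoters. No member window held the core site AGGTCA of a thyroid hormone response element, which 16.3% of promoters held, nor the full palindromic glucocorticoid response element, which 0.00913% held. These are matches of letters, and binding was not measured on the arrays.

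Between 21728 and 21760 probes per array lay at or above the limit, a range set by the normalization, which gave all arrays nearly the same values. T3 replicate 2 stood furthest from its group, with an estimated array weight of 0.33, followed by T3 replicate 1 at 0.58. Known hormone targets moved with the labels: the Klf9 probe rose by 1.62 on the log2 scale with T3 and by 1.12 with CORT, and Tsc22d3 at ILMN_3150811 rose by 2.44 with CORT. Ppia, a reference gene, was not called with CORT (0.10 at ILMN_1250983, adjusted p = 0.22). Of 11 neuronal marker genes on the array, 6 were tested, among them Eno2 at a vehicle mean of 154.4, while Nefl, Rbfox3, Snap25, Slc17a7 and Gad1 lay below the limit. Of 8 tested neuronal probes, 1 was lower with CORT and 2 with T3+CORT, against 7.3% and 7.25% of all tested probes. All probes of that list summed to 2360 to 2370 with vehicle, 2352 to 2440 with T3, 2286 to 2321 with CORT and 2250 to 2339 with T3+CORT. This sum includes the probes below the limit. Of the Syn1 probes in it, ILMN_1235133 had means of 284.5 with vehicle and 219.6 with CORT, and ILMN_2762083 had 367.8 and 369.3. All 8 fibroblast and mesenchyme markers were tested. Their signal summed over all probes of the list was 19380 to 22390 with vehicle, 19700 to 24260 with T3, 22130 to 22560 with CORT and 18450 to 20730 with T3+CORT. Most of that sum came from Vim at ILMN_2451022, with means of 13580 with vehicle, 14200 with T3, 13860 with CORT and 11890 with T3+CORT. Of 13 tested probes of the list, 2, of Pdgfra and Col3a1, were higher with CORT and with T3+CORT. Over all tested probes 6.82% and 7.13% were higher. Of the Col3a1 probes, ILMN_2683958 had means of 109.3 with vehicle and 178.7 with CORT, and the brighter ILMN_1258629 had 491.0 and 579.8. The part of cell identity in the results below was not tested.

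Id1 was the member with the largest difference from vehicle, and CORT was the condition that separated its levels. Its single probe, ILMN_2672190, read 372.2, 395.6 and 347.4 on the vehicle arrays. After T3 it read 288.6, 438.9 and 368.6. CORT gave 567.7, 662.7 and 674.0, and T3+CORT gave 653.8, 604.3 and 615.8. Every array that received CORT was above every array that did not. The mean signal was 371.7 ± 24.1 (SD, n = 3) with vehicle, 365.4 ± 75.2 with T3, 634.8 ± 58.4 with CORT and 624.6 ± 25.9 with T3+CORT. Id1 rose 1.71-fold with CORT (log2 fold change 0.77, SE 0.12, adjusted p = 0.00025) and 1.68-fold with T3+CORT (0.75, SE 0.12, adjusted p = 0.00033). The vehicle and T3 levels could not be separated (-0.04, 95% interval -0.30 to 0.21, adjusted p = 1), nor could those of CORT and T3+CORT (-0.02, interval -0.27 to 0.23, adjusted p = 0.99). Among the 24084 tested probes, Id1 ranked 134 by size among those higher with CORT and 108 among those higher with T3+CORT.

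Id2 was measured by 3 probes that did not agree on CORT. The brightest, ILMN_1228557, read 128.0, 132.0 and 130.0 with vehicle, and 129.5, 113.4 and 106.4 with T3. It read 183.0, 158.2 and 153.0 with CORT, and 234.8, 203.8 and 181.5 with T3+CORT. The order of means was T3, vehicle, CORT and T3+CORT, at 116.4 ± 11.8, 130.0 ± 2.0, 164.7 ± 16.03 and 206.7 ± 26.8 (SD, n = 3). All CORT and T3+CORT arrays lay above all vehicle arrays, and the lowest T3+CORT array lay just under the highest CORT array. Id2 at this probe rose 1.26-fold with CORT (0.34, SE 0.10, adjusted p = 0.035) and 1.58-fold with T3+CORT (0.66, SE 0.10, adjusted p = 0.00028). The CORT call was lost without any 1 of 5 arrays, with an adjusted p of 0.10, 0.079 and 0.092 without vehicle replicates 1, 2 and 3, and 0.16 and 0.061 without CORT replicates 1 and 2.

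The second Id2 probe, ILMN_1236868, which carries the accession of a cDNA clone (AK013239), did not share this difference. It read 134.9, 126.7 and 103.5 with vehicle, 113.4, 99.3 and 109.7 with T3, 107.0, 109.5 and 92.6 with CORT, and 109.0, 154.9 and 129.0 with T3+CORT. Its groups overlapped, and its log2 differences from vehicle were -0.24 with CORT (adjusted p = 0.22) and 0.10 with T3+CORT (adjusted p = 0.64). The third, ILMN_2887239, passed the limit on 5 arrays only, with a difference of 0.18 with CORT (adjusted p = 0.21).

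Both brighter Id2 probes read higher with T3+CORT than with CORT alone, although neither difference passed. The log2 difference was 0.32 at ILMN_1228557 (interval 0.11 to 0.54, unadjusted p = 0.0055, adjusted p = 0.34) and 0.34 at ILMN_1236868 (interval 0.09 to 0.58, unadjusted p = 0.011, adjusted p = 0.43). The 2-by-2 interaction, which asks whether the log2 response to T3+CORT exceeds the sum of the single responses, was 0.49 at ILMN_1228557 (SE 0.15, unadjusted p = 0.0035, adjusted p = 0.47). At ILMN_1236868 it was 0.51 (SE 0.17, unadjusted p = 0.0071, adjusted p = 0.61). These were the 2 member probes of 19 with an unadjusted p under 0.05 for the interaction, against 5.74% of all tested probes, and the probes were read on the same arrays.

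Id3 followed the same order as Id1 with smaller differences that did not pass. Its probe, ILMN_2687169, read 167.9, 157.6 and 162.5 with vehicle, 163.0, 147.6 and 172.8 with T3, 171.0, 197.1 and 234.8 with CORT, and 196.5, 211.2 and 179.7 with T3+CORT. All arrays with CORT were above all vehicle arrays, and CORT replicate 1 overlapped with T3 replicate 3. The difference was 1.22-fold with CORT (0.29, SE 0.11, adjusted p = 0.074) and 1.20-fold with T3+CORT (0.26, SE 0.11, adjusted p = 0.11). With CORT it passed when T3 replicate 2 was left out (still 0.29, adjusted p = 0.037) or CORT replicate 1 was left out (0.40, adjusted p = 0.023). It also passed with array weights, with an adjusted p of 0.01 for CORT and 0.025 for T3+CORT.

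The fourth family member, Id4, was on the list of other pathway genes and rose with CORT at both of its probes. At ILMN_2678714 it read 83.5, 84.4 and 105.6 with vehicle, 86.8, 75.1 and 97.5 with T3, 201.9, 174.7 and 184.3 with CORT, and 147.3, 131.0 and 137.2 with T3+CORT. The 2 groups without CORT overlapped, and all 3 CORT arrays were above all 3 T3+CORT arrays, which were above the rest. Id4 at this probe rose 2.06-fold with CORT (1.04, SE 0.11, adjusted p = 1.9e-06) and 1.53-fold with T3+CORT (0.61, SE 0.11, adjusted p = 0.00075). ILMN_1232416, whose vehicle signals of 71.3 to 85.0 lay around the limit, gave 1.59-fold with CORT (adjusted p = 2.4e-05) and 1.42-fold with T3+CORT (adjusted p = 0.00042). The difference between T3+CORT and CORT did not pass at either Id4 probe (-0.43, adjusted p = 0.12, and -0.16, adjusted p = 0.69), and its sign was opposite to that at the 2 brighter Id2 probes. None of the 7 tested probes of the E protein genes Tcf3, Tcf4 and Tcf12 was called in any comparison.

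**Figure D1:**
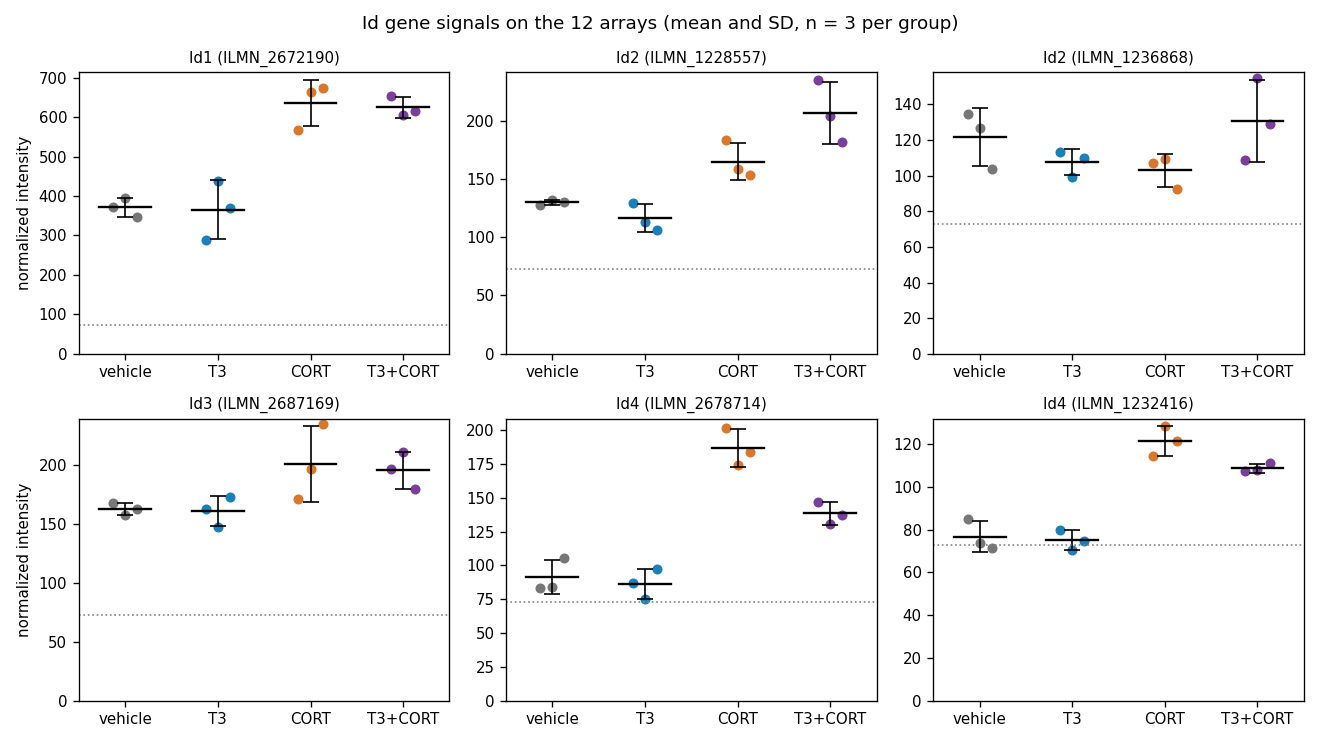
Normalized intensity (y axis, linear, from 0) of 6 Id gene probes on the 12 arrays, grouped by treatment (x axis). Points are arrays, bars are the mean and SD of 3 arrays, and the dotted line is the background limit of 72.8. Every Id1 array with CORT lies at 567.7 or above, against 438.9 or below without CORT.

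Bmp1, the chordin-cleaving protease gene, showed a split among its 5 probes. The brightest, ILMN_2989955, had means of 1033 with vehicle, 966.7 with T3, 1079 with CORT and 1007 with T3+CORT, and was not called (CORT 0.07, adjusted p = 0.69). At ILMN_1218116 the signal was 259.6, 240.6 and 222.9 with vehicle, 243.7, 269.0 and 250.1 with T3, 174.3, 172.6 and 200.8 with CORT, and 199.3, 204.7 and 195.0 with T3+CORT. All arrays with CORT were below all arrays without it. ILMN_2713538 gave 223.7, 193.1 and 212.1 with vehicle, 226.0, 217.6 and 219.4 with T3, 156.7, 177.6 and 163.6 with CORT, and 147.5, 157.1 and 164.3 with T3+CORT, again with no overlap.

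With CORT, Bmp1 fell by 0.40 on the log2 scale at ILMN_1218116 (SE 0.09, adjusted p = 0.0055) and by 0.34 at ILMN_2713538 (SE 0.09, adjusted p = 0.014). With T3+CORT it fell by 0.42 at ILMN_2713538 (adjusted p = 0.0029), and the difference at ILMN_1218116 was -0.27 (adjusted p = 0.053). The CORT call at ILMN_2713538 was lost without vehicle replicate 1 (adjusted p = 0.08), vehicle replicate 3 (0.052) or CORT replicate 1 (0.063). The fourth probe, ILMN_1255558, had group means of 82.7 to 90.6 and was not called, and the fifth lay below the limit. The files do not say which Bmp1 transcripts each probe detects. Bmp1 lies at chr14:70474555-70520716 in GRCm38.p6.

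Bmp4, the only BMP ligand gene among the members, lay below the limit at both probes on all 12 arrays, between 51.8 and 63.7. Its level was thus not measured above background under any treatment. Of the other listed ligand genes, 12 had a probe and 2, Bmp5 and Bmp7, were tested, with group means of 87.9 to 99.4 for Bmp5 and 70.2 to 76.4 for Bmp7. Neither was called.

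Extracellular antagonists and modulators held 5 of the 8 probes of the pathway list that were called with CORT. Among 11 tested probes of 10 such genes, 3 rose and 2 fell with CORT, against 6.82% of all tested probes higher and 7.3% lower, and with so few probes nothing is read from the share. Chrd, which encodes chordin, read 488.2, 475.3 and 463.9 with vehicle, 426.0, 446.1 and 460.0 with T3, 1121.2, 1199.4 and 1153.8 with CORT, and 826.3, 902.8 and 1089.9 with T3+CORT. All 6 arrays with CORT were above the 6 without, and all CORT arrays were above all T3+CORT arrays. Chrd rose 2.43-fold with CORT (1.28, SE 0.10, adjusted p = 2.2e-08) and 1.96-fold with T3+CORT (0.97, SE 0.10, adjusted p = 1.2e-06). The T3+CORT level differed from the CORT level by -0.31 on the log2 scale (adjusted p = 0.31).

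Fstl1, a secreted follistatin-like glycoprotein gene, read 1167.9, 1282.9 and 1179.4 with vehicle, 1371.8, 1249.6 and 1336.0 with T3, 1727.9, 1671.9 and 1679.6 with CORT, and 1410.9, 1311.4 and 1346.0 with T3+CORT. The CORT arrays stood above all others. Fstl1 rose by 0.49 on the log2 scale with CORT (SE 0.08, adjusted p = 0.00038) and had a difference of 0.17 with T3+CORT (adjusted p = 0.18). The interaction was -0.45 (unadjusted p = 0.00079, adjusted p = 0.24). Fstl3, which encodes a binder of activins, rose 1.43-fold with CORT (adjusted p = 0.0013) and 1.26-fold with T3+CORT (adjusted p = 0.024), from a vehicle mean of 151.4 ± 6.6 (SD, n = 3). Crim1, a transmembrane BMP modulator, fell by 0.30 with CORT at ILMN_2910295 (adjusted p = 0.03), from 212.4, 217.0 and 213.1 to 169.7, 157.7 and 195.6. Its second tested probe was not called (-0.24, adjusted p = 0.24). The antagonist gene Sostdc1 was at least 1.11-fold lower with CORT (adjusted p = 0.033), a bound taken against the limit since all 3 CORT arrays lay below it.

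**Figure D2:**
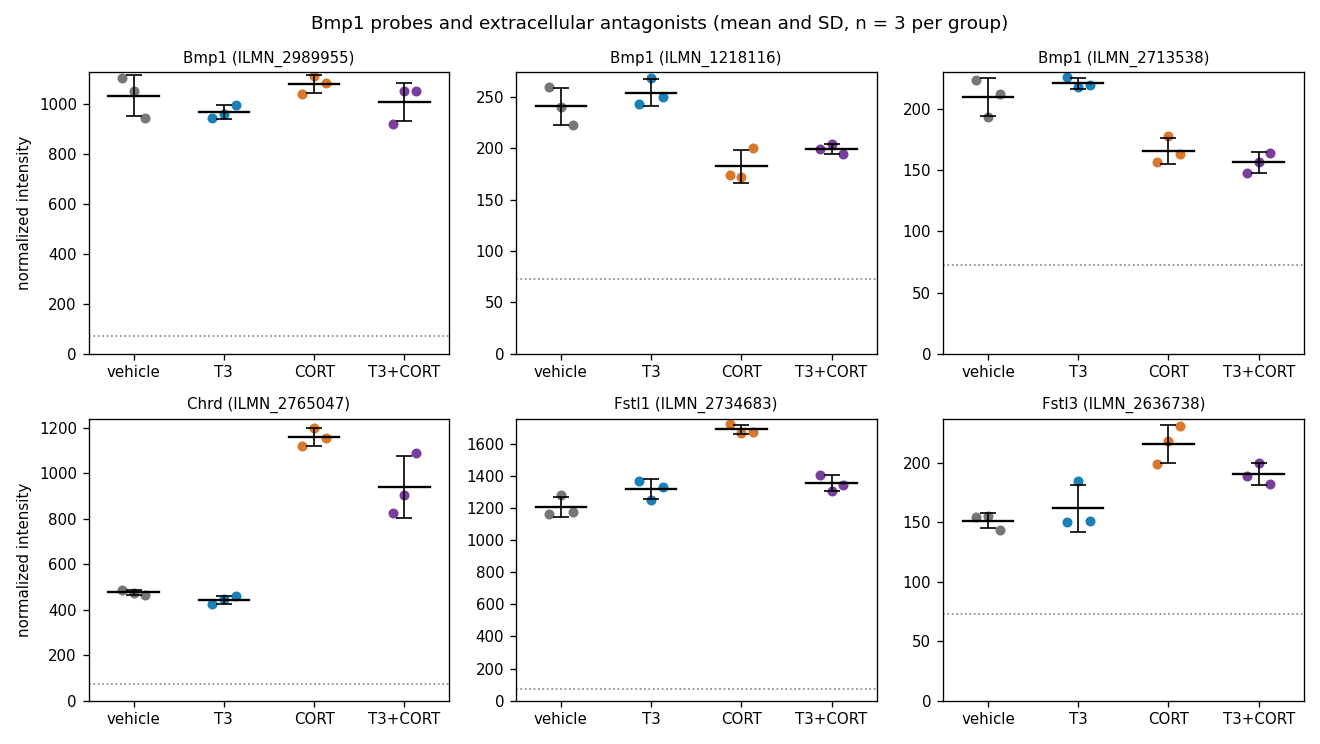
Normalized intensity (y axis, linear, from 0) of 3 Bmp1 probes and of the antagonist and modulator genes Chrd, Fstl1 and Fstl3 in the 4 groups (x axis). Points are arrays, bars are the mean and SD of 3 arrays, and the dotted line is the limit of 72.8. Chrd lies between 826.3 and 1199.4 on arrays with CORT and at 488.2 or below without it, and 2 of the 3 Bmp1 probes are lower with CORT while ILMN_2989955 is not.

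The receptor genes were measured well above the limit and were not called. Bmpr1a at its brightest probe, ILMN_1251119, read 450.1, 521.6 and 582.8 with vehicle, 708.0, 377.7 and 460.1 with T3, 634.3, 672.8 and 713.4 with CORT, and 577.2, 509.7 and 621.0 with T3+CORT. The CORT arrays were above the vehicle arrays, but T3 replicate 1 was as high as they were and T3 replicate 2 was the lowest of all 12. The CORT difference was 0.38 (SE 0.16, adjusted p = 0.12). It passed without T3 replicate 1 (adjusted p = 0.017), without T3 replicate 2 (0.025), with array weights (0.018) and with only the CORT and vehicle arrays in the fit (0.0049). Without T3 replicate 1 or T3 replicate 2 the difference itself stayed at 0.38. The other Bmpr1a probe, ILMN_2653312, lay between 241.7 and 306.5 and had a CORT difference of the opposite sign (-0.10, adjusted p = 0.55).

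Bmpr2 at ILMN_1217466 lay between 734.7 and 1047.1, with differences of 0.01 for CORT (95% interval -0.22 to 0.24) and 0.12 for T3+CORT (interval -0.11 to 0.35, adjusted p = 0.53). Of its other 3 probes, 1 passed the limit, on 4 arrays. Bambi, which encodes a pseudoreceptor that lacks the kinase domain, was below the limit on all arrays, at 51.3 to 67.1. In the list of other receptor genes, 1 of 8 tested probes was called with CORT (12.5%, against 14.1% of all tested probes). Rgma, a BMP co-receptor gene, rose 1.42-fold (adjusted p = 0.045). It read 959.0, 1326.5 and 1238.8 with vehicle and 2049.9, 1540.8 and 1433.7 with CORT, and T3 values of 1707.8, 1010.4 and 1457.8 overlapped with both.

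Smad1 was carried by 5 tested probes, none of them called. ILMN_2953700 read 442.2, 568.9 and 594.7 with vehicle, 625.9, 460.1 and 631.4 with T3, 650.6, 664.9 and 705.5 with CORT, and 667.2, 579.9 and 694.7 with T3+CORT. ILMN_2671572 read 344.3, 410.8 and 448.5 with vehicle, 488.0, 330.3 and 438.5 with T3, 456.0, 540.7 and 472.8 with CORT, and 480.7, 516.3 and 494.8 with T3+CORT. At both probes the CORT arrays were above the vehicle arrays. The T3 arrays overlapped with the vehicle arrays at both probes and with the CORT arrays at ILMN_2671572. The differences with CORT were 0.34 (SE 0.13, adjusted p = 0.076) and 0.29 (SE 0.13, adjusted p = 0.13), and with T3+CORT 0.28 (adjusted p = 0.15) and 0.32 (adjusted p = 0.1).

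All 4 of these Smad1 values passed once T3 replicate 2 was left out, with an adjusted p of 0.016 and 0.034 for CORT and 0.047 and 0.021 for T3+CORT. That array is in none of the groups compared here, so the 4 log2 differences stayed the same. What changed was the estimate of spread shared by all groups. T3 replicate 2 held the lowest or the second-lowest signal of the 12 arrays at both probes. The other 3 Smad1 probes were near the limit, with group means of 73.1 to 93.2. Smad6, the inhibitory Smad gene, lay between 87.3 and 118.7, and its differences from vehicle were -0.00 with CORT (interval -0.20 to 0.19) and 0.08 with T3+CORT (adjusted p = 0.62). In the list of other Smads and their regulators, 0 of 8 tested probes were called against vehicle. In T3+CORT against T3, both probes of the ubiquitin ligase gene Smurf1 (adjusted p = 0.025 and 0.049) and the corepressor gene Ski (adjusted p = 0.048) were lower. These 3 of 8 tested probes compare with 7.97% of all tested probes lower in that comparison. The Smurf1 probes are of 1 gene and lay not far above the limit, with group means of 78.8 to 98.3 and 80.8 to 96.0. With so few probes nothing is read from the share.

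**Figure D3:**
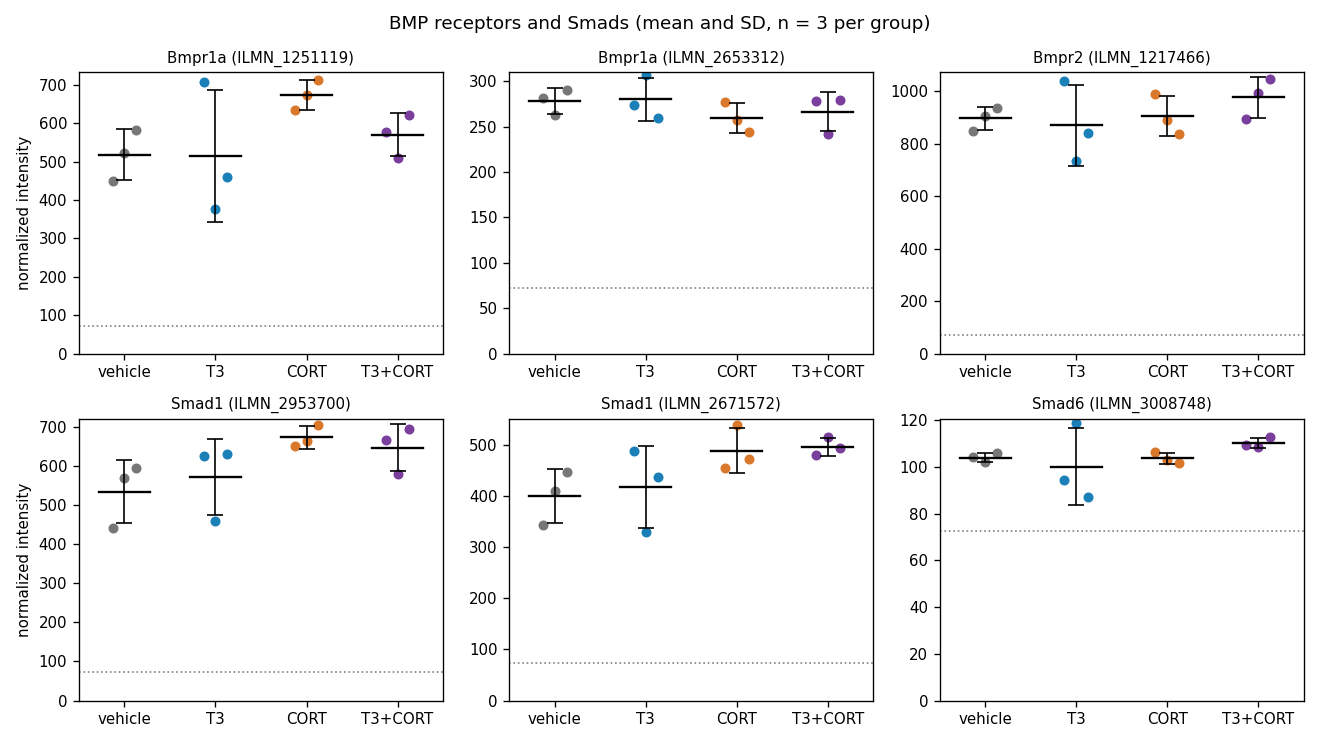
Normalized intensity (y axis, linear, from 0) of the brighter Bmpr1a, Bmpr2 and Smad1 probes and of Smad6 in the 4 groups (x axis). Points are arrays, bars are the mean and SD of 3 arrays, and the dotted line is the limit of 72.8. The T3 arrays have the widest spread, with Bmpr1a at ILMN_1251119 between 377.7 and 708.0.

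Counted together, no tested member probe was called with T3 alone, and Bmp4 and Bambi could not be tested. At an adjusted p under 0.05, T3 called 0 of 19 member probes, against 0.0664% of all tested probes, and 0 of 19 also at an unadjusted p under 0.05, which 5.27% of all tested probes passed. An unequal-variance test of each probe on its own likewise gave 0 member probes at an unadjusted p under 0.05. The member differences with T3 ran from -0.17 to 0.17 on the log2 scale, with a median 95% half-width of 0.20. T3 also called 0 of 42 tested probes of the pathway list. These intervals leave room for changes of that size in single genes.

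With CORT, 4 of 19 member probes were called, 2 higher (Id1 and Id2) and 2 lower (both Bmp1), a share of 21.1% against 14.1% of all tested probes (6.82% higher and 7.3% lower). The CORT arrays lay wholly above the vehicle arrays for 9 of 19 member probes, against 16.4% of all tested probes, and wholly below for 2, against 18.5%. The median member difference was 0.07, and that over all tested probes was -0.00. By the thresholds of the methods (unadjusted p under 0.02 and a fold of at least 1.5), 1 member probe passed, Id1, against 1.77% of all tested probes. With 4 calls, the share called is close enough to the background that the count of calls does not set these genes apart. The 9 probes wholly above vehicle were a larger share than the background, but they include several probes each of Smad1 and Id2, read on the same arrays. The values of the single genes carry the description.

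With T3+CORT, 3 of 19 were called (15.8%, against 14.4% of all tested probes, 7.13% higher and 7.25% lower), Id1 and Id2 higher and Bmp1 at ILMN_2713538 lower. Id1 and Id2 also passed the thresholds of the methods, against 1.71% of all probes. The T3+CORT arrays lay wholly above the vehicle arrays for 5 member probes, against 17.4% of all, and wholly below for 2, against 18.8%. The 3 comparisons with vehicle share the vehicle arrays, so their values are not independent of each other. In T3+CORT against T3, which asks for the CORT response with T3 present, 4 of 19 were called, against 15.7% of all tested probes (7.76% higher and 7.97% lower). Id1 was higher by 0.79 (adjusted p = 0.00019) and Id2 at ILMN_1228557 by 0.82 (adjusted p = 2.9e-05), and Bmp1 fell by 0.50 at ILMN_2713538 (adjusted p = 0.00068) and by 0.35 at ILMN_1218116 (adjusted p = 0.013).

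T3 in the presence of CORT gave no member call. In T3+CORT against CORT, 0 of 19 were called, against 0.386% of all tested probes, and 2 had an unadjusted p under 0.05, the brighter Id2 probes, against 7.67% of all. The unequal-variance test of each probe called 0 after adjustment and found 1 member at an unadjusted p under 0.05. For the interaction, 0 of 19 were called, against 0.0706% of all tested probes, and the same Id2 probes were the 2 with an unadjusted p under 0.05.

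**Figure D4:**
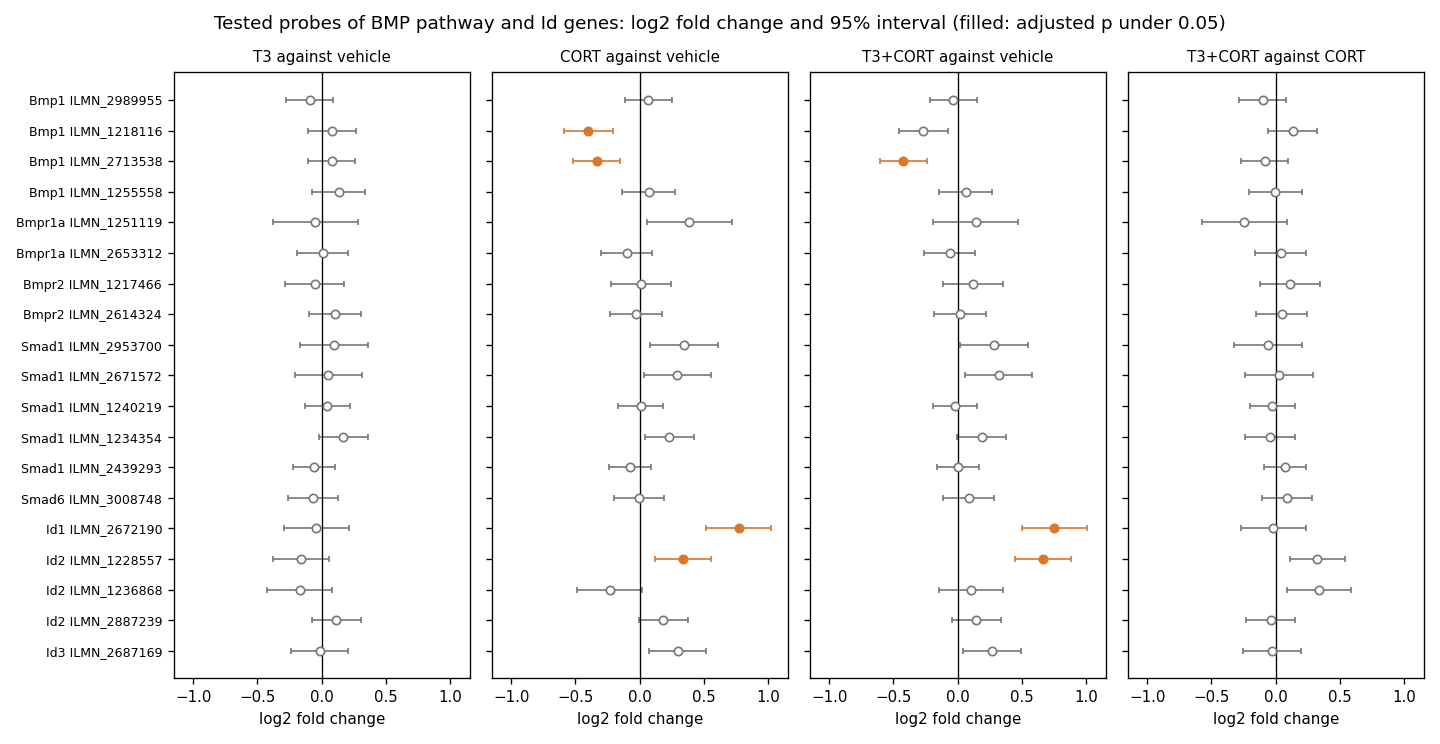
Log2 fold change (x axis) of the 19 tested member probes (y axis) in 4 comparisons, with 95% intervals. Filled points have an adjusted p under 0.05: there are 4 for CORT against vehicle, 3 for T3+CORT against vehicle and 0 in the other 2 comparisons.

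Over the wider pathway list, 57 of 65 genes had a probe and 32 genes with 42 probes were tested. With CORT, 6 probes rose and 2 fell (19.0%, against 14.1% of all tested probes), with a median difference of 0.02. Those that rose were Chrd, both Id4 probes, Fstl1, Fstl3 and Rgma, and those that fell were Crim1 and Sostdc1. With T3+CORT, 4 rose and 0 fell (9.52%, against 14.4% of all tested probes). They were the probes of Chrd and Fstl3 and both Id4 probes. None of 4 tested probes of other transcriptional targets, Msx1, Hey1, Atoh8 and Hamp2, was called. Their differences with CORT lay between -0.03 and 0.05 on the log2 scale. Msx1, Hey1 and Hamp2 lay around the background limit, with group means of 70.5 to 74.5, 71.7 to 74.4 and 69.3 to 75.6. Their small differences therefore do not show that these genes were unchanged. Only Atoh8 lay clearly above the limit, with group means of 109.9 to 120.4. T3+CORT against CORT and the interaction called 0 of 42 each.

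Across the 12 arrays, member probes correlated in both directions. The 2 brighter Smad1 probes correlated at r = 0.86 and the 2 Bmp1 probes that were lower with CORT at r = 0.82. Bmpr1a at ILMN_1251119 followed Smad1 at ILMN_2953700 (r = 0.81), and T3 replicate 2 was low at both. Among the Id genes, r was 0.76 for Id1 and Id2, 0.74 for Id1 and Id3, and 0.60 for Id2 and Id3, on the brightest probes. The other bright Id2 probe, ILMN_1236868, had r = -0.03 with Id1, and the 2 Bmpr1a probes had r = -0.38 with each other. The strongest negative values were those of Bmp1 at ILMN_2713538 with Id2 at ILMN_1228557 (-0.92) and with Id1 (-0.90). These values describe 12 arrays that share 4 conditions and their normalization.

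The tested probes whose log2 signal was most like that of Id1 belonged to Mrpl2 (r = 0.98), Zbtb17 (0.98) and Bcl2l1 (0.98). Mrpl2 had means of 2128 with vehicle, 2105 with T3, 3344 with CORT and 3484 with T3+CORT, and Bcl2l1, a survival gene of the Bcl2 family, had 161.8, 157.7, 266.0 and 254.9 in the same order. For Id2 they were Tbcel (0.96), Alg10b (0.94) and Rpl9 (0.94), which shared its order of T3, vehicle, CORT and T3+CORT. Tbcel had means of 566.8, 604.4, 681.1 and 709.0 in that order. For Id3 they were Enkd1 (0.95), Zdhhc8 (0.94) and Zkscan16 (0.93). Likeness was Pearson's r over 12 arrays, chosen as the highest among tested probes with 1 gene symbol, member genes left out.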

How the data were processed

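Gene expression was measured on 12 Illumina Mouse WG-6 v2.0 arrays, 3 for each of 4 groups named in the labels. The deposited values are normalized intensity values, for which the methods name rank invariant normalization and BeadStudio. They are linear and span 40 to 43897.9, with array medians of 71.2 to 71.3, and at any rank the 12 arrays differed by at most 0.5. The methods do not say which step made the arrays match this closely, so the normalization of these values is not known for certain. A second table of non-normalized signals was not used, since its 12 signal and 12 detection columns match no sample label.

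Probes were named from GEO's platform annotation: 34885 had 1 gene symbol, 18 several and 10378 none. The background limit of 72.8 was the mode of the signal plus the 0.95 normal quantile of its lower-side spread, and a probe was tested where 3 or more arrays reached it. Log2 signals were fitted with limma 3.58.1 (R 4.3.3), with 1 mean per group, a mean-variance trend in eBayes and 8 residual degrees of freedom. P-values were adjusted by Benjamini-Hochberg over 24084 probes within each of 6 contrasts, two-sided, and an adjusted p under 0.05 counted as called. Folds are ratios of geometric means. Precision is limited by the number of arrays. The scripts were tested on simulated data. Several probes of a gene were all reported, the brightest leading. Members were all named. Members called in any contrast and up to 10 called genes of the pathway list were given with array values or summaries. For Id1, Id2 and Id3 the 3 most correlated probes with 1 gene symbol, outside the members, were given. Members and gene lists, including cell type markers, were chosen with earlier results of these data known. Oligodendrocyte, microglial and endothelial markers had 0 called probes against vehicle. Of 7 tested astrocyte probes, 1 was higher with CORT and 1 with T3+CORT, against 6.82% and 7.13% of all tested probes.

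Alternatives were no filter, a stricter limit of 78.4, normexp with an offset of 16, cyclic loess, no trend, array weights, only the groups compared, replicate number as a block, an unequal-variance t-test of each probe on the linear signal, 1 probe per gene, and each array left out. Only member probes were followed through them. Calls in the pathway list, such as Rgma with an adjusted p of 0.045, were not checked in this way.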

Additional observations from a re-analysis of the deposited data

How the results depend on the processing

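The 114 values of the 19 tested member probes gave 2350 values under 21 alternatives, of which 2297 kept their side of the threshold, 34 passed only under the alternative and 19 lost the call. Among the 2297, 99 had the other sign, all of values that were not called, and 0 called values changed sign. Id1 with CORT ranged from 0.72 to 0.85 and with T3+CORT from 0.70 to 0.80, and lost its call only under an unequal-variance t-test of each probe on the linear signal. Calls with CORT went from 4 to 8 with array weights, to 8 with only the groups compared, to 2 with 1 probe per gene and to 0 under the t-test, where 32 of all probes and 4 member probes at an unadjusted p under 0.05 were found. Without 1 array they ranged from 2 (without vehicle replicate 1 or 3) to 8 (without T3 replicate 2). Calls with T3+CORT went from 3 to 6 with weights, to 7 with only the groups compared and to 0 under the t-test (4 at an unadjusted p under 0.05), and ranged from 3 to 6 without 1 array (6 without T3 replicate 2). Probes past the methods' thresholds with T3+CORT went from 2 to 1 under the t-test, and ranged from 1 (without T3+CORT replicate 1) to 2. Calls in T3+CORT against T3 went from 4 to 2 with 1 probe per gene and to 0 under the t-test (5 at an unadjusted p under 0.05), and ranged from 4 to 7 (without T3 replicate 1) without 1 array. The other counts stayed within 1.5 times of the main count. The limma fit used log2 signals and shares the spread across probes and groups. The t-test used the linear signal and shares no spread. Which of these differences changed the calls was not tested, nor was the cause for the other settings.

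Samples with the same replicate number did not deviate together: the correlation of deviations from group means had a median of 0.04 over 18 same-numbered pairs (-0.21 to 0.39) and -0.01 over 36 others. With the replicate block, 4 member probes were called with CORT, 3 with T3+CORT and 4 in T3+CORT against T3, as without it, and 0 elsewhere. Probes below the limit, those of Bmp4 and Bambi included, have no usable level here.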
